A study of Mus musculus with 7 samples.

Results

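Trichostatin A (TSA) blocks histone deacetylases, and the comparison described here is how its effect on RNA levels differed between mouse embryonic fibroblasts (MEF) of 2 genotypes. The first genotype lacked p53 (p53-/-, here p53-null) and the second lacked p53 and Dnmt1 (p53-/- Dnmt1-/-, here p53-Dnmt1-null), so the absence of p53 was shared by every array. Untreated cells of each genotype and cells exposed to TSA for 24 h or 48 h were profiled, which makes 6 of the 7 arrays of the series. The 7th array, from p53-Dnmt1-null cells 2 weeks after TSA was removed, entered only a few descriptive counts. There was 1 array per group, each from total RNA, and the labels do not say whether the arrays came from separate cultures, how the alleles were made or which dose of TSA was used. For each feature the response was the log2 signal with TSA minus the log2 signal of the untreated array of that genotype. The quantity of interest was the difference of responses, the p53-Dnmt1-null response minus the p53-null response, averaged over 24 h and 48 h. It was computed for all 9252 features that passed a filter on dim signals, 8192 named genes and 1060 probe sets without a single gene name.

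Dnmt1 copies the methylation of cytosines in CpG pairs onto the new DNA strand after replication, so its loss drains methylation from the genome as cells divide. Methylated DNA is bound by proteins that bring in histone deacetylases, and deacetylated histones go with silent chromatin. TSA leaves histones acetylated and raises the RNA of some genes while lowering that of others, among them many genes of the cell cycle. A gene that is held silent by methylation and deacetylation together can therefore answer TSA differently once methylation is lost, which is the question a comparison of these genotypes addresses.

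Signals are given below as 3 values per genotype, untreated, 24 h and 48 h, with p53-null cells first and p53-Dnmt1-null cells second. The arrays were alike in overall scale, with median signals of 44.0 to 48.8 and 3' to 5' signal ratios of 1.06 to 1.15 for the Actb control and 0.83 to 0.91 for the Gapdh control. Dnmt1 signals were 695.6, 384.4 and 308.2 in p53-null and 206.5, 74.0 and 109.5 in p53-Dnmt1-null cells. Its difference of responses was -0.11, and that of Actb, cytoplasmic actin, was 0.02. The 18S ribosomal RNA control stood apart: its 3' probe set read 194.0, 337.5 and 228.7 in p53-null and 688.1, 2549.1 and 1292.1 in p53-Dnmt1-null cells, a difference of responses of 1.11 at 24 h and 0.67 at 48 h. For its 5' probe set the difference was 1.83 at 24 h and 0.67 at 48 h. Fibroblast mesenchymal factors were present in both genotypes, with summed signals over 28 genes of 17252.3 to 21141.8 in p53-null cells and 8195.9 to 10301.8 in p53-Dnmt1-null cells. Summed signals of markers of surface epithelia and mesothelium were higher in p53-Dnmt1-null cells on every array. There 19 epithelial genes summed to 11007.4 to 16266.5 against 745.8 to 1043.6 in p53-null cells, and 20 mesothelial genes to 21459.5 to 26395.8 against 1002.1 to 1291.0. The sums do not speak for each member. Of 34 epithelial genes on the array 19 passed the filter, and Epcam read 8.0, 108.7 and 18.8 in p53-Dnmt1-null cells. These summed signals and the 18S signal move with genotype, and their part in the differences below was not tested. In bulk RNA such as this, fewer cells of a type cannot be told apart from less RNA per cell.

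No feature passed limma's test of the difference of responses (0 of 9252, 0%, at an adjusted p under 0.05). The lowest adjusted p was 0.68, for Tex101, and the next was 0.995, so none of the genes named below passed it. At an unadjusted p under 0.05 there were 292 features (3.16%), 129 with a higher and 163 with a lower response in p53-Dnmt1-null cells, against 462.6 expected with no difference. The median standard error of a difference was 0.466 on the log2 scale, and in simulated data the test recovered 1.2% of 2-fold, 22.8% of 4-fold, 66.8% of 8-fold and 90.4% of 16-fold differences. Those shares hold for a setting in which 200 features changed in each run, which eases the adjusted threshold. In the real data Tex101, with a 21.1-fold difference, did not pass, so the shares may be too high for these data. A missed threshold in this design does not show that the genotypes answered alike. The account that follows therefore rests on sizes: a difference of responses of at least 1 on the log2 scale (2-fold) in the same direction at both times. Both times share the lone untreated array of each genotype, so an untreated value that is off by chance moves both.

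Of all 9252 features 3236 were above 0 and 3338 below 0 at both times, and 305 passed the filter through the treated p53-Dnmt1-null arrays alone and 264 through the treated p53-null arrays alone. A gene that passed in that way had to be dim on the other 4 arrays, so counts of such genes carry that choice.

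By that size rule 126 features (1.36%) had a difference of responses of at least 1 at both times and 178 features (1.92%) one of -1 or less. A positive difference can be a larger rise or a smaller fall in p53-Dnmt1-null cells, and a negative one a smaller rise or a larger fall. Under quantile and cyclic loess normalization the split was 149 against 133 and 143 against 138, and at an offset of 46.2 signal units in place of 11.7 it was 52 against 52. At 24 h alone, that is without either 48 h array, 478 features lay on the higher and 667 on the lower side. At 48 h alone, without either 24 h array, there were 360 and 407. A count at both times cannot exceed the count at either time. Of the features at 24 h, 26.4% of the higher and 26.7% of the lower were also past 1 in that direction at 48 h. Of those at 48 h, 35% of the higher and 43.7% of the lower were also past it at 24 h. Both times share the untreated arrays. In the opposite sense, 7 features were at least 1 higher at 24 h and at least 1 lower at 48 h, and 8 the other way round.

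**Figure D1:**
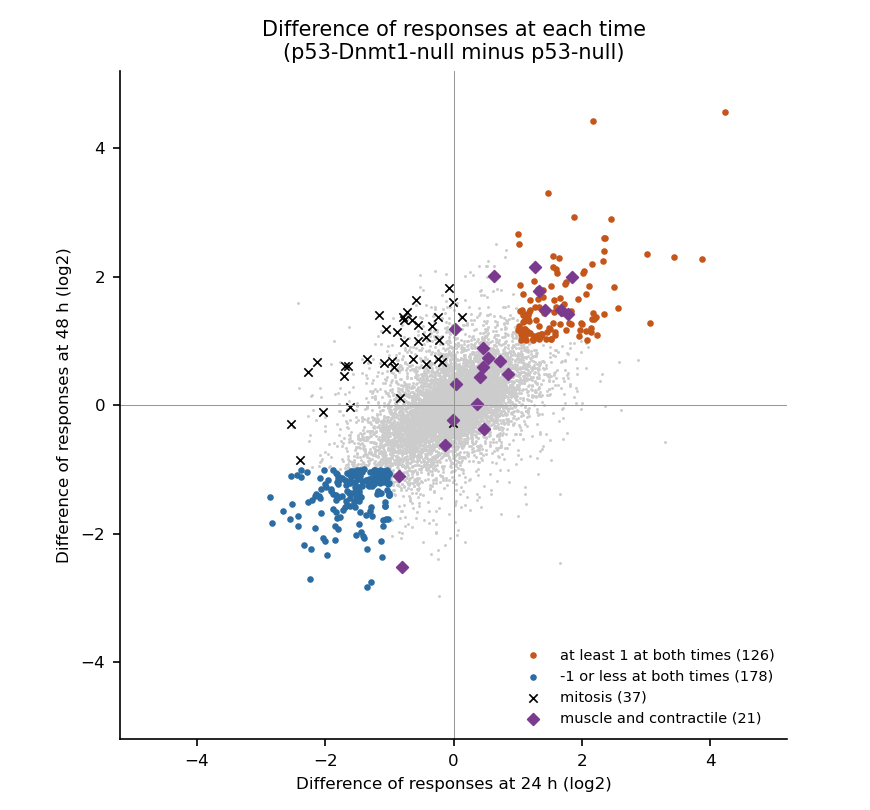
Difference of responses (p53-Dnmt1-null minus p53-null, log2) at 24 h (x axis) and 48 h (y axis) for 9252 features in grey, with the 126 and 178 features past 1 in the same direction at both times in orange and blue. Most of the 37 mitosis genes (crosses) lie below 0 at 24 h and above 0 at 48 h, while 16 of 21 muscle and contractile genes (diamonds) lie above 0 at both times.

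The largest difference belonged to Tex101, which encodes a glycoprotein of testicular germ cells. Its signals were 7.4, 2.8 and 1.8 in p53-null and 4.1, 212.8 and 253.8 in p53-Dnmt1-null cells. Both untreated arrays and both treated p53-null arrays were below the dimness limit of 46.2, so the signal was clear on the 2 treated p53-Dnmt1-null arrays alone, and it read 4.8 on the array taken 2 weeks after removal. The difference of responses was 4.40 ± 0.58 (log2, limma SE, unadjusted p = 7.4e-05, adjusted p = 0.68). Of 33 germline genes on the array 8 were bright enough to test, and of these Tex101 alone was past the size rule. It was among 2 of the 8 that passed the filter through the treated p53-Dnmt1-null arrays alone. Piwil2, a small RNA binding protein of the germline, read 8.0 or less in p53-null and 141.3, 238.7 and 165.3 in p53-Dnmt1-null cells, and Tex15 read 15.1 or less against 79.1, 31.3 and 95.0. Both were thus above the limit already in untreated p53-Dnmt1-null cells, with differences of responses of 0.55 and -1.12. The 250 bases before the start of Tex101 (RefSeq, GRCm38.p6, chr7:24672051-24672300, minus strand) are shown because this promoter belongs to the gene whose response differed most, with its 14 CpG pairs in capitals.
Tex101: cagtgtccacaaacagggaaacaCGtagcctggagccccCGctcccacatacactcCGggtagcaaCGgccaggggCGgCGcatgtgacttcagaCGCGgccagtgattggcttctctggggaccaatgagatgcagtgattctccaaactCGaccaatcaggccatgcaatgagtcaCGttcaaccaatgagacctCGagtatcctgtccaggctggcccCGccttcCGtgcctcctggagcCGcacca

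In 44 features (0.476%) TSA went with a signal at least 2-fold higher in p53-Dnmt1-null cells at both times while the p53-null response stayed within 0.5 of 0 at both times. The median difference of responses in this class was 1.5. Crabp2, which carries retinoic acid in the cell, had the largest difference. It read 780.0, 844.1 and 986.2 in p53-null and 6.7, 279.3 and 100.3 in p53-Dnmt1-null cells, so a gap that was wide in untreated cells was narrower with TSA. The difference of responses was 3.07 ± 0.73. Aldh1a1, a dehydrogenase that makes retinoic acid, had the opposite starting point: it read 3.4 or less on all p53-null arrays and 139.9, 473.3 and 836.7 on the p53-Dnmt1-null arrays, a difference of 1.94 ± 0.56. Ccl17, a chemokine for T cells, read 10.7, 4.4 and 4.5 against 33.1, 149.2 and 142.6, a difference of 2.29 ± 0.54. Cpne2, a calcium-dependent membrane binding protein, read 110.7, 114.5 and 86.2 against 7.6, 48.5 and 55.2. Lce1h, of the cornified envelope of skin, read 21.5 or less in p53-null and 9.9, 198.0 and 39.6 in p53-Dnmt1-null cells. Its treated values were far apart.

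In the untreated cells 17 of these 44 features were at least 2-fold lower in p53-Dnmt1-null than in p53-null cells, 7 were at least 2-fold higher and 20 lay between. With TSA 7 were lower, 21 higher and 16 between. The class rule moves every member in that direction, so the change in these counts follows from the choice of features. A signal below the limit of 46.2 on all 3 p53-null arrays was found for 18 of the 44, where a small response cannot be read well. Of the 44, 29 were at least 2-fold higher at both times of TSA than on the array taken after removal. The class was chosen on those same TSA values, so this count follows in part from the choice. On the array after removal 33 of the 44 were within 2-fold of the untreated array. The class held 212 features without the p53-Dnmt1-null 48 h array, 76 without its 24 h array, 77 without the p53-null 24 h array and 71 without the p53-null 48 h array.

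Several members of that class encode contractile proteins. Actc1, the cardiac alpha actin, read 20.4, 22.4 and 18 in p53-null and 81.5, 344.7 and 330.9 in p53-Dnmt1-null cells. Its difference of responses was 1.92 ± 0.43, with both treated p53-Dnmt1-null arrays at nearly the same level. Myl9, a regulatory myosin light chain of smooth muscle and non-muscle cells, read 2543.1, 2113.2 and 2371.0 against 323.5, 874.1 and 862.6, so it stayed lower in p53-Dnmt1-null cells on every array while its difference of responses was 1.58 ± 0.31. Acta1, the skeletal alpha actin, read 96.6, 107.9 and 84.0 against 58.1, 195.8 and 160.5, which put p53-Dnmt1-null cells below p53-null cells before TSA and above them with it. Desmin, Des, the intermediate filament protein of muscle, read 14.6 or less in p53-null and 127.3, 557.9 and 299.9 in p53-Dnmt1-null cells. A second, dim probe set of Des, with a highest signal of 61.8, gave -0.36 where the brighter gave 1.60. Fhl1, a LIM-domain protein of muscle, read 1917.8, 1808.7 and 1657.3 against 257.9, 674.4 and 633.2, a difference of 1.45 ± 0.34.

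Of 44 muscle and contractile genes on the array 21 passed the filter, 3 of them through the treated p53-Dnmt1-null arrays alone. Their median difference of responses was 0.47 at 24 h and 0.68 at 48 h, against -0.011 and -0.005 over all features. At both times 16 of the 21 were above 0 and 4 below, against 3236 and 3338 of all 9252 features, and 6 were past the size rule upward (Acta1, Actc1, Ankrd1, Cnn1, Des and Myl9) against 1.36% of all features. No member was past it downward, and Mef2c, a transcription factor of muscle, had the lowest difference at -1.67, with 4 other probe sets at -0.69 to -0.33. Ankrd1, a stretch-responsive repeat protein of heart muscle, read 53.8, 71.5 and 26.3 against 325.0, 1012.3 and 857.9. Of the regulators and enzymes that define skeletal muscle, Myod1 reached 64.0 on the p53-Dnmt1-null 24 h array, above the limit of 46.2. The others stayed below it on all 6 arrays, with highest signals of 26.2 for Myog, 2.0 for Myf5 and 35.4 for Ckm, as did smooth muscle myosin, Myh11, with 17.1. The members were chosen with earlier results known, and the list's counts are a description.

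The promoters of Actc1, Myl9 and Acta1 hold a CArG box, the sequence bound by serum response factor in many actin and contractile genes. They are shown with the box in capitals, for the 250 bases before each start in the RefSeq table (GRCm38.p6): Actc1 at chr2:114052876-114053125 on the minus strand, Myl9 at chr2:156775214-156775463 on the plus strand and Acta1 at chr8:123894776-123895025 on the minus strand.
Actc1: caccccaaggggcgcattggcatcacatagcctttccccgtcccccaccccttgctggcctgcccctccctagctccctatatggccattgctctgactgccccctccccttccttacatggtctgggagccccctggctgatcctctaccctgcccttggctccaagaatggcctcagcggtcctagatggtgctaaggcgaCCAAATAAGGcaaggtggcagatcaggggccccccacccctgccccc
Myl9: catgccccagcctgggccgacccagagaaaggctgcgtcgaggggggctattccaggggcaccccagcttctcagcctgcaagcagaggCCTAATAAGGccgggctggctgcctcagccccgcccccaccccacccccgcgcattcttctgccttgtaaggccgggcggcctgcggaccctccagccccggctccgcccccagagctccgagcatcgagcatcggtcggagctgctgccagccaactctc
Acta1: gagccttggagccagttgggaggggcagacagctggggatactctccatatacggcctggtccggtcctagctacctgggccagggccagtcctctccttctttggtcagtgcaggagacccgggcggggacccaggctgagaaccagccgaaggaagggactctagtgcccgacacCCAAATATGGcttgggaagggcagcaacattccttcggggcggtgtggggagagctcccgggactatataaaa
The motif was searched on both strands, where it reads alike, and it was chosen after the values had been seen. It occurred in 5 of the 27 genes of the class higher in p53-Dnmt1-null cells alone that had a window (18.5%; Acta1, Actc1, Ampd3, Fhl1 and Myl9), in 0 of 32 genes of the mirror class and in 1.5% of the 6672 tested genes with a window. Among features past the size rule it occurred in 7 of 87 with a window upward (8.05%) and in 1 of 113 downward (0.885%). The windows of Ankrd1, Cnn1 and Des, the other muscle and contractile genes past the rule upward, held no box. Of the 18 tested muscle and contractile genes with a window 4 held a box (22.2%). Cnn2, a calponin that was not past the rule, was among them. A match describes letters in this window and not binding. The median number of CpG pairs in the window was 13 in the first class, 15 in the mirror class and 18 over the tested genes.

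**Figure D2:**
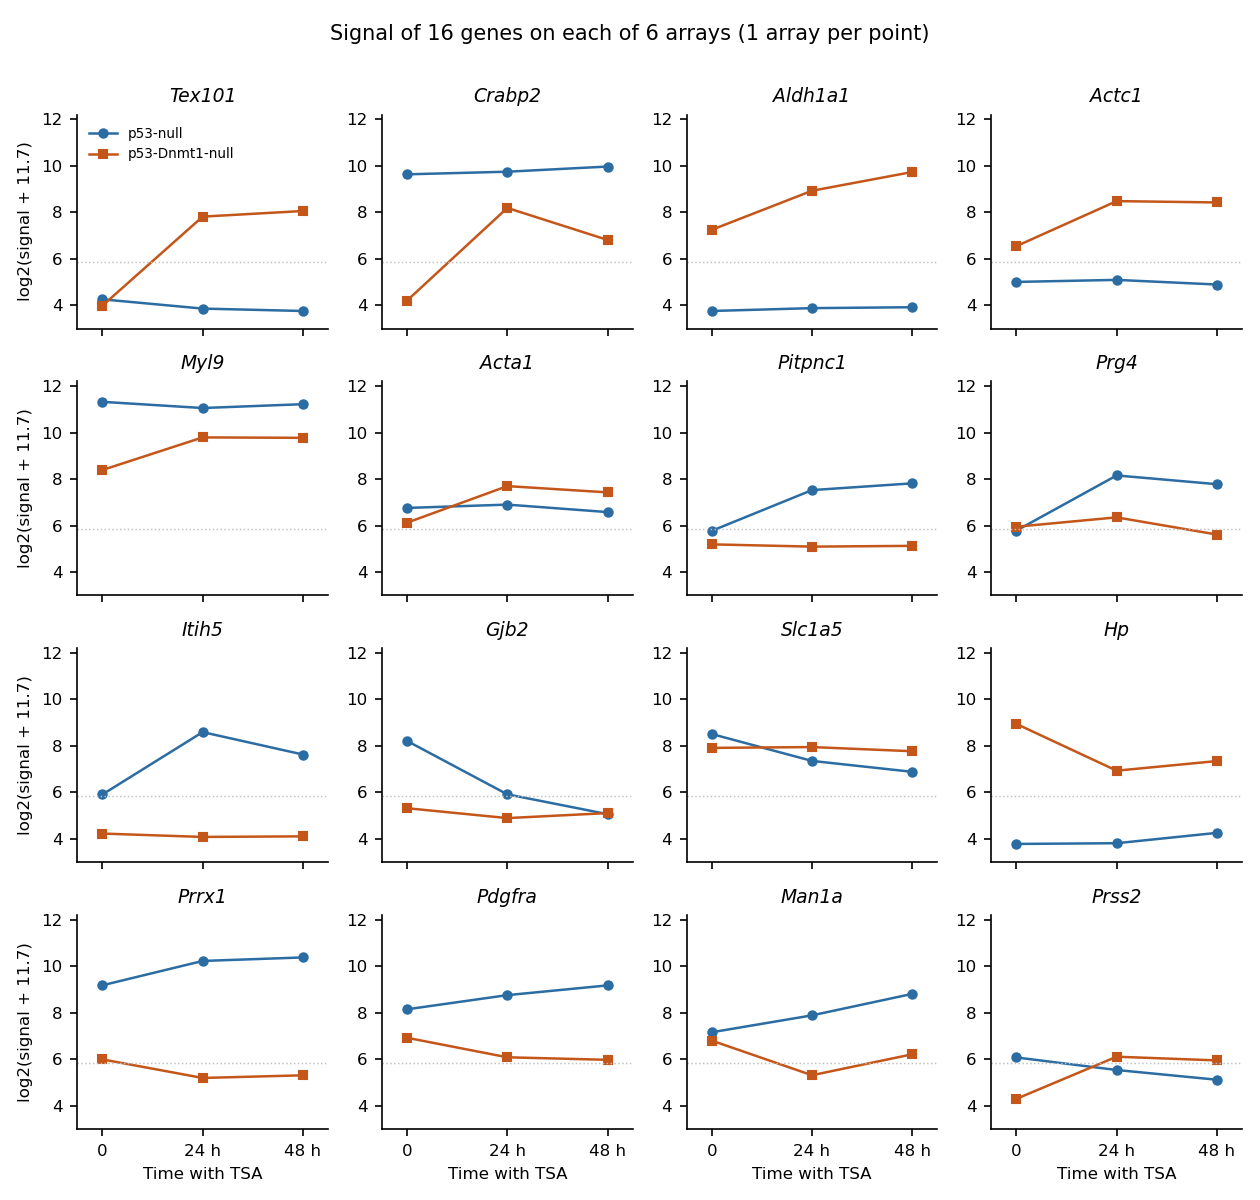
Signal as log2(signal + 11.7) on each of 6 arrays for 16 genes, p53-null cells as circles and p53-Dnmt1-null cells as squares, at 0, 24 h and 48 h of TSA, with 1 array per point and the dimness limit of 46.2 as a dotted line. Tex101, Crabp2 and Actc1 were higher with TSA in p53-Dnmt1-null cells, Pitpnc1, Prg4 and Itih5 in p53-null cells, and the lines of Prrx1, Pdgfra and Man1a part in opposite directions.

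In the mirror class, 44 features (0.476%) were at least 2-fold higher at both times in p53-null cells with a p53-Dnmt1-null response within 0.5 of 0. The median difference of responses was -1.28. Pitpnc1, a phosphatidylinositol transfer protein, read 43.0, 172.6 and 213.6 in p53-null and 24.9, 22.5 and 23.3 in p53-Dnmt1-null cells, a difference of -1.98 ± 0.46. Its 8 other probe sets gave differences of -1.79 to -0.14. Prg4, the lubricating proteoglycan of joints, read 43.4, 273.5 and 208.0 against 50.2, 70.1 and 37.3, so the genotypes started level and parted with TSA. Itih5, a hyaluronan-binding inhibitor chain, read 48.5, 374.5 and 186.4 against 7.1 or less, a difference of -2.33 ± 0.64. Pmaip1, a pro-apoptotic protein and known p53 target, read 3.0, 71.3 and 33.8 in p53-null and 59.3, 58.6 and 64.3 in p53-Dnmt1-null cells. The treated p53-null level was thus near the level that p53-Dnmt1-null cells had before treatment. Tmem35a, a chaperone of acetylcholine receptors, had the same shape, with 1.7, 76.2 and 38.6 against 29.0, 30.8 and 37.1. Zfp931, a zinc finger protein, read 10.8, 39.0 and 55.9 against 18.1 or less.

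The p53-Dnmt1-null signal was below 46.2 on all 3 arrays for 23 of these 44 features. In untreated cells 10 were at least 2-fold higher and 13 at least 2-fold lower in p53-Dnmt1-null cells, and with TSA 2 were higher and 23 lower. The class rule lowers every member in p53-Dnmt1-null relative to p53-null cells, so this change in counts also follows from the choice. The class held 159 features without the p53-null 24 h array, 81 without the p53-null 48 h array, 79 without the p53-Dnmt1-null 24 h array and 63 without the p53-Dnmt1-null 48 h array. With an offset of 1 signal unit in place of 11.7, 29 of the 44 stayed in the class, and 34 of the 44 of the class higher in p53-Dnmt1-null cells.

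A lower signal in a single genotype was rarer. In p53-null cells 10 features (0.108%) were at least 2-fold lower at both times with a p53-Dnmt1-null response within 0.5 of 0. Gjb2, a gap junction connexin, read 285.1, 48.8 and 21.8 in p53-null and 28.3, 18.1 and 22.9 in p53-Dnmt1-null cells, a difference of 2.40 ± 0.62. The p53-null level with 48 h of TSA was close to the level p53-Dnmt1-null cells had throughout, and that level was below the dimness limit. Slc1a5, a glutamine transporter, read 353.2, 152.0 and 106.6 against 229.6, 235.6 and 206.7. Mthfd1, an enzyme of folate metabolism, read 341.2, 151.9 and 139.1 against 572.9, 597.5 and 533.0. Srm, spermidine synthase, read 1720.1, 618.2 and 677.8 against 2190.8, 1821.9 and 1705.9, with differences of responses of 1.34 for Slc1a5, 1.15 for Mthfd1 and 1.08 for Srm. In all 3 genes both treated p53-null arrays lay below every other array. Anxa8, an annexin, and Chtf18, which helps load the replication clamp, had differences of 1.43 and 1.19. The class held 64 features without the p53-null 24 h array, 43 without the p53-null 48 h array, 34 without the p53-Dnmt1-null 24 h array and 23 without the p53-Dnmt1-null 48 h array.

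The class lower in p53-Dnmt1-null cells alone had 8 features (0.0865%). Haptoglobin, Hp, which binds free haemoglobin, read 2.1, 2.4 and 7.5 in p53-null and 481.3, 110.7 and 151.3 in p53-Dnmt1-null cells, a difference of -2.06 ± 0.54. In p53-null cells it was near 0 on every array, which left no room for a lower value, and it read 1178.7 after removal of TSA. Brd8, a bromodomain protein of an acetyltransferase complex, read 208.1, 172.2 and 196.2 against 429.2, 94.7 and 178.6, with 3 other probe sets at -0.75 to -0.28 where the brightest gave -1.46. Lrrc40 read 104.5, 139.5 and 126.3 against 216.5, 90.5 and 100.5, and Dsn1, of the kinetochore, 87.3, 61.3 and 60.2 against 196.9, 57.4 and 70.8. Each of these 3 genes had its highest signal of the 6 arrays in untreated p53-Dnmt1-null cells. Arhgap27 and Cfap298 had differences of -1.41 and -1.14, and 3 other, dim probe sets of Cfap298 gave -0.14 to 0.001. The class held 175 features without the p53-Dnmt1-null 48 h array, 33 without its 24 h array, 15 without the p53-null 48 h array and 13 without the p53-null 24 h array.

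**Figure D3:**
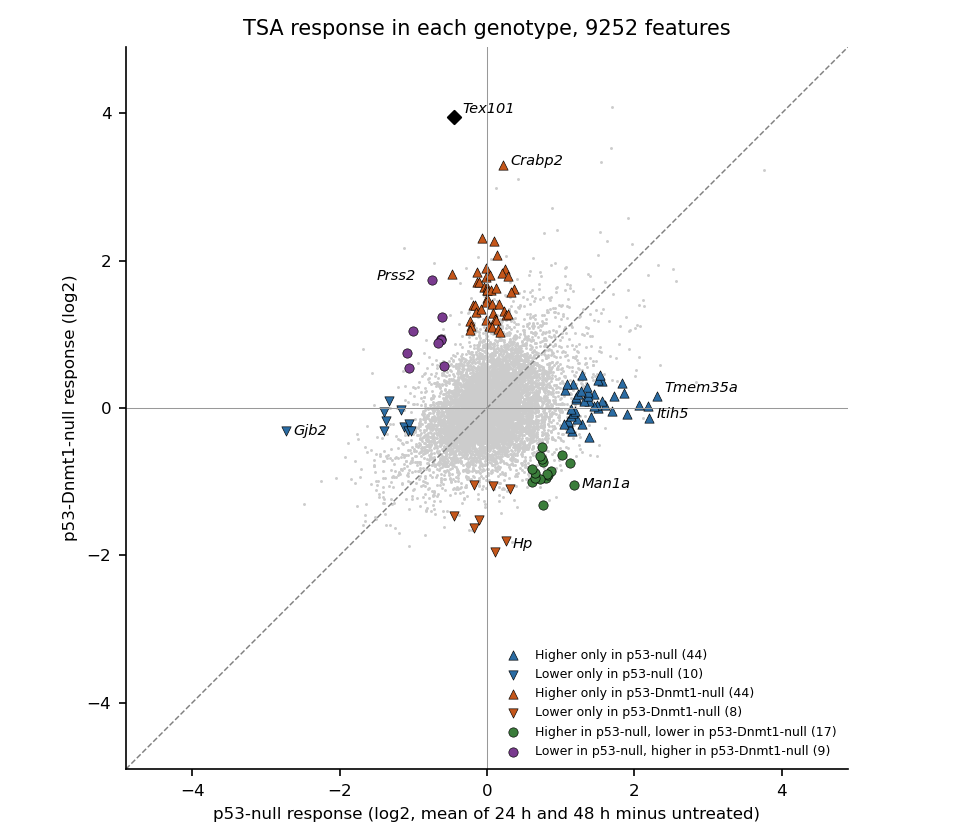
Mean TSA response over 24 h and 48 h in p53-null cells (x axis, log2) and p53-Dnmt1-null cells (y axis, log2) for 9252 features in grey, with the 6 classes in colour and the line of equal response dashed. The 44 features higher in each single genotype lie along the upper and right axes, and Tex101 (diamond) lies highest among the labelled genes.

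For comparison, each genotype's own response passed the 2-fold size at both times upward in 145 features (1.57%) and downward in 91 (0.984%) in p53-null cells, and in 171 (1.85%) and 30 (0.324%) in p53-Dnmt1-null cells. No feature was at least 2-fold higher at both times in either genotype and at least 2-fold lower at both times in the other. A smaller size of 0.5 was therefore used for opposite directions, and it was set with that result known. By it 17 features (0.184%) were higher in p53-null and lower in p53-Dnmt1-null cells, and 9 (0.0973%) were the reverse. Together these 26 became 173 without the p53-Dnmt1-null 48 h array, 43 without its 24 h array, 73 without the p53-null 24 h array and 51 without the p53-null 48 h array. Of the members named below, Cp and Csn3 were under the dimness limit on every p53-null array, and Il4ra on every p53-Dnmt1-null array. No direction can be read for these genes in that genotype, so an opposite direction was not shown for them.

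Of the features higher in p53-null cells, Prrx1, a homeobox factor of limb and craniofacial mesenchyme, read 568.2, 1186.1 and 1318.7 in p53-null and 52.1, 25 and 28.0 in p53-Dnmt1-null cells, a difference of -1.86 ± 0.41, with 3 other probe sets at -1.59 to -1.27. Pdgfra, a receptor for platelet-derived growth factor, read 272.0, 421.0 and 566.5 against 109.8, 56.2 and 51.3. In both genes the gap present in untreated cells was wider with TSA. Man1a, a mannosidase of glycoprotein processing, read 131.4, 225.1 and 437.5 against 100, 28.1 and 62.6, a difference of -2.23 ± 0.69, and its second probe set gave -1.11. Resf1, which is needed for silencing of retroelements, read 41.3, 67.0 and 97.6 against 133.3, 51.5 and 77.9, so the genotypes traded order. Ceruloplasmin, Cp, a copper-carrying plasma protein, read 15.2 or less in p53-null and 207.5, 61.2 and 94.0 in p53-Dnmt1-null cells. Its 6 other probe sets, all dimmer, gave differences of -1.83 to -0.27.

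In the reverse direction Prss2, a trypsin, read 55.9, 34.8 and 23.1 in p53-null and 8.0, 57.4 and 50.2 in p53-Dnmt1-null cells, a difference of 2.48 ± 0.56, with 3 other, dim probe sets at 0.13 to 1.47. Il4ra, a receptor chain for interleukin 4, read 110.7, 67.4 and 70.2 against 10.2, 36.1 and 44.0. The treated genotypes were closer to each other than the untreated ones, and 2 other probe sets of Il4ra gave 0.31 and 0.80. Csn3, a casein, read 30.3, 11 and 5.5 against 47.6, 86.1 and 89.7, with a second probe set, dim on every array, at -0.22. Dlk2, a membrane protein with EGF repeats, read 126.7, 66.3 and 44.9 against 49.4, 78.8 and 75.2. Calponin 1, Cnn1, which binds actin in smooth muscle, read 843.7, 585.6 and 501.2 against 390.8, 693.6 and 812.3, so that p53-null cells had more of it before TSA and less with TSA.

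The 12 genes with the lowest unadjusted p, 6 in each direction, added 3 to those already described on the lower side. Rbm26, an RNA-binding protein, read 18.3, 71.3 and 74.6 in p53-null and 63.8, 27.2 and 47.3 in p53-Dnmt1-null cells, and 2 other, dimmer probe sets of it gave differences of -0.49 and 0.08. Bpnt2, a phosphatase of the Golgi, read 122.9, 299.7 and 301.5 against 134.1, 69.2 and 94.7, and Vamp7, a membrane fusion protein, 66.0, 177.6 and 168.7 against 71.4, 45.2 and 49.3. In all 3 both treated p53-null arrays lay above and both treated p53-Dnmt1-null arrays below the untreated array of their genotype. Their differences were -2.15 ± 0.54, -1.87 ± 0.43 and -1.75 ± 0.41.

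The remaining lists were read against the same background, in which 1.36% of all features were past the size rule upward and 1.92% downward. These shares stand beside every list count given below. Fibroblast mesenchymal factors, 28 tested of 30 on the array, had medians of -0.48 at 24 h and -0.39 at 48 h, with 16 below and 8 above 0 at both times. Of the 28, 2 passed the filter through the treated p53-null arrays alone. Prrx1, Pdgfra and Runx1, a factor of blood and mesenchyme, were past the size rule downward, and none was past it upward. For Runx1 4 other, dimmer probe sets gave -0.45 to 0.20 where the brightest gave -1.31. Of 41 tested matrix glycoproteins and proteoglycans 21 were below 0 at both times and 3 past the rule downward, Postn, Lum and Dcn, and 3 passed the filter through the treated p53-null arrays alone. Periostin, Postn, read 1175.8, 1619.1 and 3814.6 against 10.5, 2.4 and 2.2, where the p53-Dnmt1-null signals are too dim for a response to be read. Lumican, Lum, read 100.5, 257.5 and 318.2 against 25.5, 17.4 and 28.3. Decorin, Dcn, read 73.8, 234.2 and 551.8 against 1097.9, 621.2 and 1611.5, and versican, Vcan, a member of the class higher in p53-null cells alone, 178.9, 483.1 and 383.9 against 34.7, 40.7 and 38.7. Of 22 tested collagens none was past the rule in either direction, and their medians were -0.04 and 0.19.

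Among 29 tested immediate early and Klf genes 5 were past the rule upward and none downward, against 1.36% and 1.92% of all features. The medians were 0.46 at 24 h and 0.06 at 48 h. The 5 past the rule were Fosl1, Jun and Myc, transcription factors of growth signalling, and Ccn1 and Ccn2, secreted proteins of the matrix. Fosl1 read 202.2, 79.6 and 39.2 against 124.0, 105.3 and 64.6. It was thus lower with TSA in both genotypes, and its positive difference was a smaller fall in p53-Dnmt1-null cells. Ccn2 read 1854.0, 2304.3 and 1639.1 against 472.1, 1681.0 and 967.4, and Ccn1 887.7, 834.9 and 656.2 against 690.9, 1806.2 and 1138.1. For Ccn2 the p53-Dnmt1-null level stayed below the p53-null level on matched arrays, whereas for Ccn1 it was below it before TSA and above it with TSA. Myc read 278.8, 181.3 and 179.9 against 275.4, 504.2 and 375.2, from nearly the same untreated signal in both genotypes.

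Cell cycle genes differed in the time course and not in a sustained way. Of 37 tested mitosis genes 31 had a difference of responses below 0 at 24 h and above 0 at 48 h, as did 26 of 35 tested DNA replication genes, against 1358 of all 9252 features. The mitosis genes summed to 12949.3, 8620.4 and 5910.0 in p53-null and to 18878.1, 7363.7 and 14381.5 in p53-Dnmt1-null cells. Their level was thus lower at each later time in p53-null cells, while in p53-Dnmt1-null cells it was lowest at 24 h and higher again at 48 h. The median responses were -0.61 at 24 h and -1.27 at 48 h in p53-null cells, and -1.501 at 24 h and -0.438 at 48 h in p53-Dnmt1-null cells. Tk1, thymidine kinase, read 788.6, 194.3 and 88.5 against 1260.3, 393.0 and 640.9, and Plk1, a mitotic kinase, 581.6, 205.4 and 113.4 against 621.6, 209.7 and 460.8. For Plk1 the genotypes were close at 0 and 24 h and apart at 48 h. Cenpf, a kinetochore protein, read 66.6, 67.1 and 44.0 against 250.9, 34.0 and 141.4, and Smc4, a condensin subunit, 265.4, 295.6 and 314.1 against 544.6, 106.1 and 351.9. With 1 array at each time the change of sign could not be tested, and the p53-Dnmt1-null 24 h array is also the array with the highest 18S signal, whose part in it was not tested.

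Interferon response genes, 27 tested of 33 on the array, had medians of 0.22 and 0.54, and 4 passed the filter through the treated p53-Dnmt1-null arrays alone and 1 through the treated p53-null arrays alone. Usp18 and Rtp4 were past the size rule upward and none downward, and a second, dim probe set of Rtp4 gave -0.02 where the brighter gave 1.24. Usp18, a protease that removes ISG15 from proteins, read 125.3, 222.8 and 223.1 in p53-null and 21.4, 156.4 and 165.4 in p53-Dnmt1-null cells, a difference of 1.61 ± 0.40. Both genotypes were higher with TSA, and the larger response came from the lower start. Oas1a, which makes oligoadenylate in answer to double-stranded RNA, read 51.8, 59.7 and 55.7 against 74.2, 160.9 and 210.7. Ifit1 lay on the other side with a difference of -1.16. Of 17 tested antigen presentation genes none was past the rule, with medians of 0.11 and 0.14, and 4 passed the filter through the treated p53-Dnmt1-null arrays alone. Cd74, the invariant chain, read 19.4, 57.1 and 26.8 against 100.1, 422.3 and 334.5.

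Of 16 tested retinoid genes 3 were past the rule upward, Crabp1, Crabp2 and Aldh1a1, and 1 downward, Tgm2, and the list's medians were -0.15 and 0.17. Crabp1, the sister of Crabp2, read 801.7, 638.1 and 310.9 against 2.1, 37.4 and 2.2. Its p53-Dnmt1-null signal was thus below the dimness limit on every array, where no response can be read. At 48 h its response was -1.334 in p53-null cells against 0.010 for the other genotype. The positive difference at that time was thus a p53-null fall. Among 17 tested chemokines and cytokines Cxcl1, Cxcl5 and Cxcl14 were past the rule downward. Cxcl14 read 103.0, 552.3 and 297.3 against 12.8, 13.1 and 20.3, and Cxcl1 81.1, 212.7 and 176.4 against 283.4, 304.2 and 224.3. The treated p53-null level of Cxcl1 approached the level p53-Dnmt1-null cells had without TSA. Of 11 tested complement and acute phase genes Hp and Cp were past the rule downward, and none upward.

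Imprinted genes showed no common direction: of 19 tested, Mest was past the rule upward and Peg3 and Dcn downward, with medians of -0.21 and -0.28. Mest, a maternally imprinted hydrolase, read 748.0, 330.0 and 742.5 against 1012.4, 1495.5 and 2727.3. Peg3, a zinc finger protein, read 26.9, 71.0 and 110.3 against 958.5, 508.3 and 1299.9, and 2 other probe sets gave -1.10 and -0.18. Of 26 tested neuronal genes Prph and Stmn4 were past the rule upward, and the medians were -0.12 and -0.13. Both were among 5 of the 26 that passed the filter through the treated p53-Dnmt1-null arrays alone, and 1 passed through the treated p53-null arrays alone. Peripherin, Prph, a neuronal intermediate filament, read 9.8, 20.6 and 5.2 against 31.8, 695.7 and 157.2, and Stmn4, a stathmin, 2.2, 35.2 and 2.2 against 3.8, 93.3 and 86.8. For Prph 3 other, dim probe sets gave -0.61 to -0.47 where the brightest gave 2.87, and the mean over probe sets gave 0.33. Stmn4 was higher at 24 h in both genotypes and at 48 h in p53-Dnmt1-null cells. Neurotensin, Nts, read 24.9, 708.7 and 327.1 against 18.2, 331.7 and 218.7, with a difference of -0.52 ± 0.67 beside large responses in both genotypes.

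Of 26 tested p53 targets Plk2, a stress-induced kinase, was past the rule upward and Pmaip1 downward. Plk2 read 341.0, 247.1 and 281.3 against 393.4, 1388.3 and 704.3. Among 19 tested epithelial genes Cldn6, a tight junction protein, was past the rule upward, and the medians were 0.36 and 0.51. Cldn6 and Epcam were among 3 of the 19 that passed the filter through the treated p53-Dnmt1-null arrays alone. Cldn6 read 5.5, 20.7 and 8.9 against 19.8, 158.1 and 65.0, and Epcam, an epithelial adhesion protein, 2.3 or less against 8.0, 108.7 and 18.8. Genes reported to be induced by histone deacetylase inhibitors, 32 tested, had medians of 0.13 and -0.17 with Ccn2 alone past the rule, and 18 reported to be repressed had 0.08 and 0.27 with Myc alone past it. Odc1, which makes the polyamine precursor putrescine, read 1014.2, 597.7 and 491.5 against 1414.1, 1853.5 and 1302.7. Of 28 tested genes of DNA methylation and chromatin none was past the rule, and Uhrf1, the partner of Dnmt1, read 290.6, 84.1 and 44.1 against 600.1, 266.8 and 349.6.

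**Figure D4:**
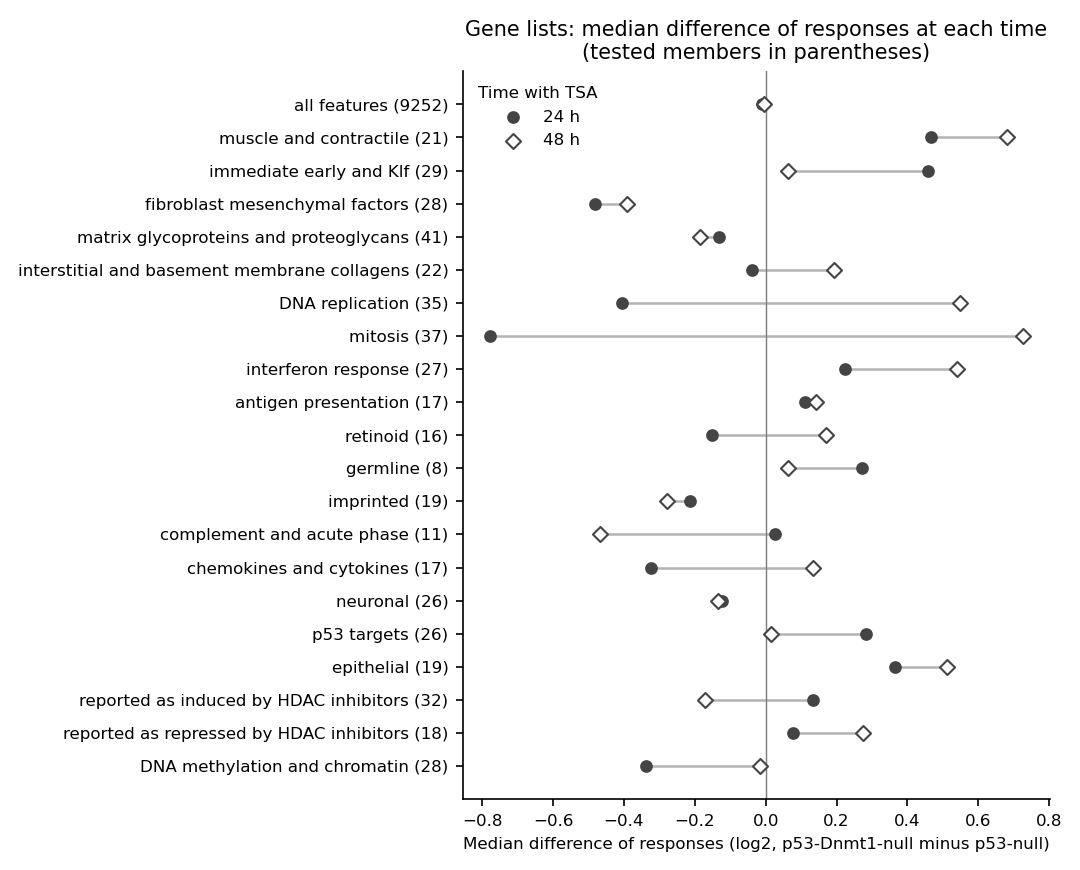
Median difference of responses (log2, p53-Dnmt1-null minus p53-null) at 24 h (filled circles) and 48 h (open diamonds) for 20 gene lists and all features, with the number of tested members in parentheses. The muscle list lies above 0 and the fibroblast factors below 0 at both times, and the mitosis list moves from -0.78 to 0.73.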

How the data were processed

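The deposited values were linear signal intensities, 1 per probe set and array, made by the authors with MAS5 per the submitters' processing notes, with no version or scaling target given in the sources used here. Their 2% trimmed mean was 150.05 or 150.06 on every array, so the authors had already scaled them.

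Of 22690 probe sets, 64 were controls. An annotation table gave 20393 a single gene symbol and 691 several, and 1606 were not listed. Symbols of 20364 were updated through RefSeq (GRCm38.p6, names only). A gene was represented by the probe set brightest on average over the arrays on the log2 scale. Signals were analysed as log2(signal + 11.7), the pooled 25th percentile of the 6 arrays, which understates responses of dim genes. Features above the pooled median of 46.2 on at least 1 array were kept. Fold changes are on that scale.

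The test was limma 3.58.1 (R 4.3.3; eBayes with a trend on intensity) with 24 h and 48 h pooled per genotype, 2 residual degrees of freedom, a prior of 5.78 and Benjamini-Hochberg adjustment at 0.05 over all features. Any real shift from 24 h to 48 h enters the error, the lone untreated arrays are assumed to vary like the treated pairs, and nothing says that arrays came from separate cultures, so p-values measure a spread that may be technical. It was tested on simulated data of 9252 features with 200 changed in each of 5 runs, and 18 of 471 calls were false.

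Members, size rules and gene lists were chosen with earlier results of these data known. Named genes were the 6 largest mean differences in each class responding in a single genotype, the 4 largest in each opposite direction, the 6 lowest p in each direction, and up to 4 largest members plus class members of each list described. Dnmt1, Actb, Nts and Tex101 were added by name. Genes outside that rule, named where a count was small, were chosen after their values were seen: Jun, Tgm2, Ampd3, Cnn2, Qpct, Serpini1, Icam1, Tesc, Bex1, Blvrb, Timp1 and the marker genes of muscle and macrophages. The alternatives were other offsets, filters and normalizations, the mean over probe sets, leaving out each treated array, and, for limma, no trend, all 7 arrays and time as a block.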

Additional observations from a re-analysis of the deposited data

Results flagged for a closer look

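In 35 genes named here both treated arrays of one genotype lay above, and both of the other genotype below, the untreated array of their genotype. No group had a replicate, each direction rests on a shared untreated array, and limma's test of the difference passed for none of them, so an opposite direction was not shown. Some of these responses are within 0.5 of 0 on 1 side. Several rest on signals at or below 46.2 on all 3 arrays of a genotype, where no direction can be read. In p53-null cells these were Hp, Cp, Runx1, Tex101, Ccl17 and Csn3. In p53-Dnmt1-null cells they were Itih5, Pitpnc1, Zfp931, Postn, Mef2c, Il4ra and Crabp1.

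Higher in p53-null and lower in p53-Dnmt1-null cells at both times, with the difference of responses (log2) in parentheses, were Itih5 (-2.33), Man1a (-2.23), Rbm26 (-2.15), Cp (-2.08), Hp (-2.06), Pitpnc1 (-1.98), Bpnt2 (-1.87), Prrx1 (-1.86), Zfp931 (-1.77), Resf1 (-1.75), Vamp7 (-1.75), Postn (-1.74), Pdgfra (-1.71), Mef2c (-1.67), Smc4 (-1.62), Lrrc40 (-1.41), Runx1 (-1.31), Cfap298 (-1.14) and Tgm2 (-1.09).

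Lower in p53-null and higher in p53-Dnmt1-null cells at both times were Tex101 (4.40), Prss2 (2.48), Ccl17 (2.29), Csn3 (1.84), Il4ra (1.84), Crabp1 (1.75), Plk2 (1.66), Dlk2 (1.60), Myl9 (1.58), Mest (1.57), Cnn1 (1.55), Fhl1 (1.45), Anxa8 (1.43), Ccn1 (1.30), Myc (1.23) and Jun (1.09).

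The 18S ribosomal RNA control, which was outside the tests, read 2549.1 at its 3' probe set in p53-Dnmt1-null cells given TSA for 24 h, against 688.1 on the untreated array of that genotype and 337.5 on the p53-null array at 24 h. The 5' probe set read 2039.0 in p53-Dnmt1-null cells at 24 h, against 223.7 untreated in that genotype and 233.0 in p53-null cells at 24 h. The part of the 18S signal in the differences at 24 h was not tested.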

How the results depend on the processing

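limma called 0 features in the main analysis and under all 14 alternatives, with lowest adjusted p-values of 0.121 (time as a block) to 1 and 175 to 843 features at an unadjusted p under 0.05. No paired analysis was possible because each group had a single array, apart from the fit with time as a block, which pairs the genotypes by time and leaves 1 residual degree of freedom. The counts by size depended on the offset. At an offset of 46.2, there were 52 higher and 52 lower features, the classes higher in a single genotype held 18 (p53-null) and 26 (p53-Dnmt1-null), the classes lower in a single genotype 5 and 5, and 4 features were opposite. An offset of 1 gave 215 higher, 317 lower, 18 and 15 lower in a single genotype, and 46 opposite. Without the filter there were 190 higher, 291 lower, 18 and 25 lower in a single genotype, and 57 opposite. Quantile normalization gave 18 lower in p53-null cells alone, cyclic loess 4 lower in p53-Dnmt1-null cells alone, and the mean over probe sets 13 opposite. Leaving out 1 treated array gave 360 to 478 higher, 407 to 667 lower, 71 to 212 higher in p53-Dnmt1-null cells alone, 63 to 159 higher in p53-null cells alone, 13 to 175 and 23 to 64 lower with TSA in p53-Dnmt1-null or p53-null cells alone, and 43 to 173 opposite, since the rule at both times becomes a rule at 1 time. The sign of the difference turned in 4 named genes: Actb under cyclic loess (-0.10) and the mean over probe sets (-0.16), Dnmt1 at the higher offset (0.04), and, with 1 treated array left out, Actb (-0.083 to 0.123), Dnmt1 (-0.358 to 0.142), Nts (-1.065 to 0.023) and Krt19 (-0.017 to 2.341). Other counts stayed within 1.5 times. Signal over background limits most results: a gene below 46.2 in a genotype has no readable response there, and 1 array per group gives no spread between cultures.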

Other observations

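Some of the largest differences belonged to genes outside the classes, because both genotypes responded or the other genotype passed 0.5. Qpct, an enzyme that cyclizes the first residue of peptides, read 11.6, 160.8 and 147.8 in p53-null cells at the 3 times and 2.1, 9.9 and 2.7 in p53-Dnmt1-null cells, a difference of responses of -2.48. Serpini1, a protease inhibitor of neurons, read 3.3, 60.8 and 38.9 against 3.2, 9.8 and 7.1. Icam1, an adhesion molecule for leukocytes, read 4.2, 58.6 and 47.9 against 178.7, 226.6 and 301.3, so it was bright in p53-Dnmt1-null cells before TSA. On the other side Tesc, a calcium-binding protein, read 1.0, 107.1 and 2.6 against 5.5, 432.0 and 178.8, and Bex1 5.5, 134.4 and 9.1 against 7.0, 452.5 and 89.0. Both were high at 24 h in either genotype and at 48 h in p53-Dnmt1-null cells. Blvrb, a flavin reductase, read 225.7, 520.7 and 178.4 against 26, 668.7 and 143.5, and Timp1, an inhibitor of matrix proteases, 2143.9, 2846.3 and 1277.4 against 317.2, 884.8 and 705.5. These genes were picked for their size.

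Markers of cells that the cultures could hold were mostly dim. Of 19 macrophage genes on the array 6 were bright enough to test, of 15 endothelial genes 5, of 9 erythroid genes 1, of 14 adipocyte genes 8 and of 11 liver genes 3, and none of these was past the size rule at both times. The 6 tested macrophage genes summed to 163.5 to 232.7 in p53-null and 436.4 to 592.1 in p53-Dnmt1-null cells. Csf1r, a macrophage receptor, read 43.7, 50.3 and 53.6 against 158.6, 120.1 and 161.8. Other markers of such cells, Ptprc, Adgre1 and Tyrobp, stayed below 46.2 on all 6 arrays. The part of these signals in the differences was not tested. Of 20 tested mesothelial genes 1 was past the size rule, upward. Of 19 tested genes of cholesterol synthesis none was past it, and 12 had a difference below 0 at 24 h and above 0 at 48 h, the turn also seen in most cell cycle genes.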
